A study of Mus musculus with 96 samples.

Results

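Mouse dendritic cells were compared between a pair of bacterial ligands, Lps and Pam, 4 to 8 h after the ligand was added. The groups were taken from the sample titles and hours. Lps gave 6 arrays and Pam gave 6, with 2 arrays of each ligand at 4, 6 and 8 h, and together they are 12 of the 96 arrays of the study. Lps is lipopolysaccharide, a ligand of Toll-like receptor 4 (TLR4), and Pam is a synthetic bacterial lipopeptide, a ligand of TLR2. The labels give only the short names, and their meaning is taken from what is known of the study. All cells were primary dendritic cells grown out of mouse bone marrow, and all arrays, the controls included, carry total RNA labelled with biotin. The labels used here give no strain, age, genotype or ligand dose. The study also holds 8 arrays of unstimulated cells, 1 each from 0 to 24 h, which are given beside the values as the background. Whether arrays of 1 ligand and hour stem from separate cultures is not stated in the labels. The p-values therefore measure only how far these arrays spread, which may be technical.

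TLR2 and TLR4 both sit on the surface of dendritic cells and signal through the adaptor MyD88 to NF-kB and MAP kinases, which switch on genes of inflammation. TLR4 can in addition signal from endosomes through the adaptor TRIF, encoded by Ticam1, to the factor IRF3 and the gene of interferon-beta. Secreted interferon-beta then acts on the same and on neighbouring cells through factors such as STAT2 and IRF9, which bind interferon-stimulated response elements in the promoters of antiviral genes. Ticam1, Ticam2 and Il27 were among the genes listed for this comparison and were not analysed here.

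Intensities were deposited on a linear scale, with 20 as the lowest value of every array, so a value at this floor is a bound and not a level. Per array, 33.8% to 34.6% of probe sets were at the floor, and the median ran from 48.75 to 54.2. Across genes, which are no independent replicates, Pearson's r between arrays of 1 ligand and hour was 0.996 to 0.997, and at most 2 items differed by 2-fold between them. How precise a mean is depends on the number of arrays. On the plate, each hour had 1 column shared by both ligands, and each ligand had rows of its own, so plate row and ligand cannot be told apart. Of 11 dendritic cell markers 9 were above the floor with either ligand, Cd74 and Itgax among them, while Cd209a and Itgae were at the floor on all 12 arrays. The summed intensity of the dendritic list ran from 25190.1 to 26453.5 with Lps and from 27734.5 to 29896.2 with Pam. For the 9 macrophage markers it ran from 22937.1 to 24069.7 and from 24234.3 to 25332.2, and for the 10 neutrophil markers from 5286 to 6759 and from 5037 to 6769. The macrophage markers did not move together. Of them 2 were called higher with Lps, Mertk and Fcgr1, and 0 lower, with a median difference of -0.11. The markers Cd3g, Cd8a, Cd79a, Ms4a1, Ncr1 and Hba-a1 of lymphocytes and red cells were at the floor on all 12 arrays, and Cd3e, Cd79b, Prf1 and Klf1 rose above it on some arrays, to at most 23.8. The B cell marker Cd22 was above the floor on all 12 arrays, from 36.1 to 49.3 with Lps and from 54.1 to 73.9 with Pam. The summed plasmacytoid list ran from 335 to 696 with Lps and from 164 to 274.5 with Pam. Of its 3 measured markers 1 was called, Tcf4, named after its values were seen, at 2.02 ± 0.09 (limma adjusted p = 2.1e-08). Tcf4 alone ran from 230.3 to 592.7 with Lps and from 63.8 to 155.4 with Pam. Ccr9 had a mean of 45.7 with Lps and of 37.0 with Pam, and Spib went the other way, at 20.3 and 27.1, neither called. The unstimulated array of 6 h stood apart from the other 7 in interferon-stimulated genes, with Ifit2 at 2133.1 against 599.2 to 1115.9, Ifit3 at 1396.6 against 329.4 to 622.6 and Iigp1 at 300.2 against 78.3 to 120.9. The part of these shifts in the results was not tested, and in bulk RNA fewer cells of a type and less RNA per cell cannot be told apart.

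More items were called higher with Lps than lower, and the largest differences lay towards Lps. Calls required a limma p under 0.05 after Benjamini-Hochberg adjustment and a difference in log2(intensity + 1) of at least 1 in size, with the hour as a block. The limma adjusted p alone was under 0.05 for 6226 items, or 63.0% of all items tested. A small adjusted p therefore sets few genes apart, and the calls rest mainly on the size of the difference. Of 9889 items tested, 7267 named genes and 2622 probe sets without a single gene name, 442 (4.47%) were called higher with Lps and 206 (2.08%) lower. Differences of 2 or more on the log2 scale numbered 110 higher and 6 lower, and differences of 4 or more numbered 10 and 0. The median difference over all items was -0.10, and centring every array on its own median gave 527 and 138. The 6 Lps and 6 Pam values did not overlap for 12% of all items with Lps higher and for 21.3% with Lps lower, most of them with small differences. The unstimulated mean lay below both ligand means for 170 of the 442 items called higher (38.5%), between them for 256 (57.9%) and above both for 16 (3.62%). Of the 206 items called lower, it lay below both for 17 (8.25%), between them for 89 (43.2%) and above both for 100 (48.5%). Over all items tested, the shares were 28.0% below both, 25.5% between and 46.5% above both. Without the unstimulated array of 6 h, an alternative added after seeing the data, the counts were 175, 253 and 14 for items called higher and 16, 86 and 104 for items called lower. Plate place and stimulation cannot be told apart for the unstimulated arrays.

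**Figure D1:**
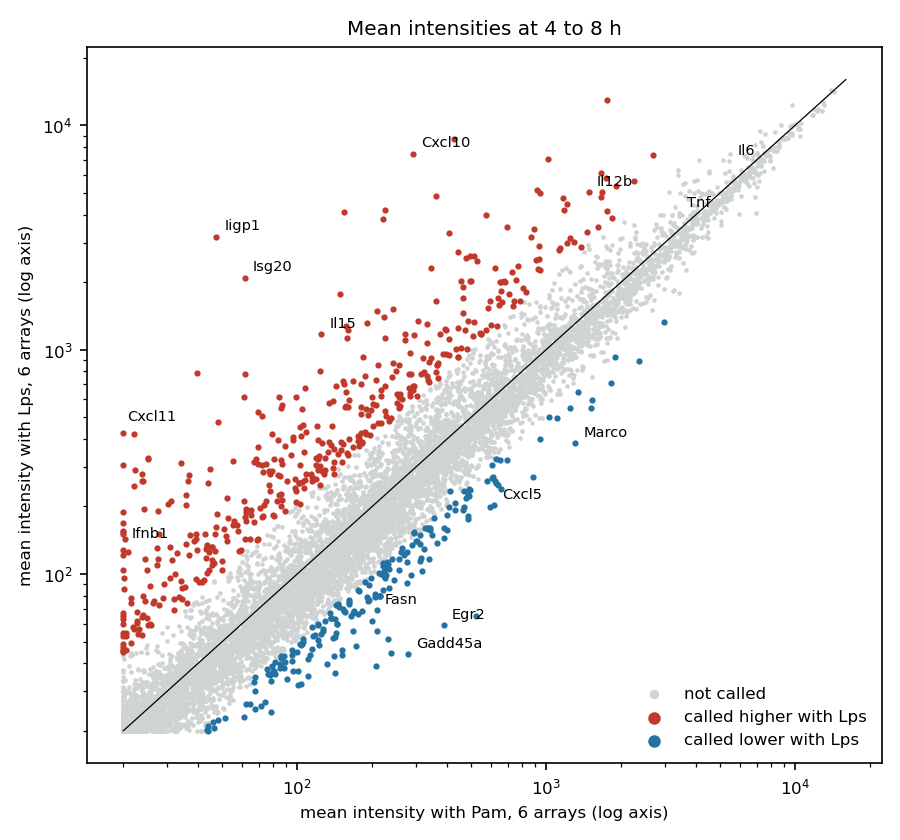
Mean intensity over the 6 Pam arrays (x, log axis) against the mean over the 6 Lps arrays (y, log axis) at 4 to 8 h for each of the 9889 items tested, with red points for the 442 called higher with Lps, blue points for the 206 called lower and grey for the rest. The black line marks equal means, and Iigp1 and Cxcl10 lie far above it, while Il6 and Tnf lie close to it.

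The gene of interferon-beta was measured with Lps and not with Pam. Ifnb1, which encodes this cytokine, stood at 312.5 and 262.4 with Lps at 4 h, at 117.2 and 126.9 at 6 h and at 65.8 and 44.1 at 8 h. It was at the floor of 20 on all 6 Pam arrays and on all 8 unstimulated arrays. The difference was at least 6.17-fold over the 3 hours (limma adjusted p = 3.6e-05), where such a bound sets the geometric mean of the ligand measured against the floor. With the other ligands of the study at the same hours, the mean Ifnb1 intensity was 1296 with Pic, 198 with Cpg and 81.1 with Grd, so every ligand but Pam had a mean above the floor.

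The type I interferon pathway held calls towards Lps. Of 18 measured members 6 (33.3%) were called higher and 0 lower, beside 4.47% and 2.08% of all items. Their median difference was 0.60 against -0.10 over all items. Usp18, which removes ISG15 from proteins and restrains the interferon receptor, had a lowest, median and highest intensity of 4346.5, 4915 and 5781 with Lps and of 633, 1036 and 1156 with Pam. The groups lay wholly apart, and the difference was 2.43 ± 0.10 (SE, n = 6 per ligand). The transcription factor gene Irf7, which amplifies interferon production, ran from 2310 to 3369.6 with Lps and from 853 to 1023 with Pam, a difference of 1.62 ± 0.08. Irf1 differed by 1.63 ± 0.08 and Stat2 by 1.62 ± 0.09. For these 4 genes the limma adjusted p ran from 1.1e-08 for Usp18 to 1.6e-07 for Stat2. The interferon receptor chain gene Ifnar2, at 0.14 ± 0.04, and the kinase gene Jak2, at 0.10 ± 0.04, were among the members not called, and their values overlapped between the ligands.

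The antiviral genes that interferon switches on lay towards Lps almost throughout. Of 41 measured antiviral interferon-stimulated genes 36 were called higher with Lps and 0 lower, where 4.47% of all items were called higher. Their median difference was 2.01, and for 40 of the 41 the lowest Lps array lay above the highest Pam array, where 12% of all items did so. The list was chosen with earlier results of these data known, so its direction is not independent evidence.

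Isg20, which encodes an exonuclease that degrades RNA, stood at 1451 and 1420.2 at 4 h, 2178 and 2502 at 6 h and 2392 and 2627 at 8 h with Lps. The Pam arrays stood at 50.6 and 46.6, at 69.2 and 56.7 and at 79.5 and 66.8. Every Lps value was above every Pam value, as the rule for naming the largest differences required, and the unstimulated mean was 108. The difference was 5.05 ± 0.08 on the log2 scale, or 33.1-fold. Cmpk2, a nucleotide kinase gene, had a mean of 4093 with Lps and of 154 with Pam, a difference of 4.80 ± 0.20. Ifit2 and Ifit3 encode antiviral proteins with tetratricopeptide repeats. Ifit2 ran from 7118.5 to 9846 with Lps and from 269.5 to 592 with Pam, and Ifit3 from 3550.5 to 4787.5 and from 109 to 319.6. The unstimulated means, 974 for Ifit2 and 576 for Ifit3, lay above all Pam values of these genes, as did each of the 8 unstimulated arrays. Oasl1, an OAS-like gene, differed by 3.79 ± 0.15 and Mx2, which encodes a dynamin-like GTPase, by 3.62 ± 0.15. Limma gave these 6 genes adjusted p-values from 5e-11 for Isg20 to 8.8e-08 for Ifit3. Ifitm3, at 0.61 ± 0.05, Rtp4, at 0.86 ± 0.06, and Lgals3bp, at 0.40 ± 0.04, did not reach the threshold of 1, though their Lps values did not overlap their Pam values.

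The interferon-induced GTPases, which act on vacuoles that hold pathogens, held the largest difference of any named gene. Of 10 measured members 9 (90%) were called higher and 0 lower, beside 4.47% and 2.08% of all items, with a median difference of 2.36. Iigp1 stood at 3310.1 and 3278.5 at 4 h, 3861 and 3659 at 6 h and 2665 and 2383 at 8 h with Lps. On the Pam arrays it was at 32.5 and 35.9, at 73.2 and 43.6 and at 53.2 and 44.6. The difference was 6.08 ± 0.15, or 67.7-fold, and the unstimulated arrays, from 78.3 to 300.2, were all above the Pam arrays. Tgtp1 differed by 4.10 ± 0.09, Igtp by 3.04 ± 0.14, Irgm2 by 2.83 ± 0.14 and Ifi47 by 2.49 ± 0.08. Limma adjusted p for these 5 genes ran from 2.3e-10 for Tgtp1 to 4e-08 for Irgm2. The member that was not called, Gbp2, ran from 4853 to 6638 with Lps and from 3418 to 4307 with Pam, a difference of 0.52 ± 0.05.

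Promoter letters were read for these genes because interferon response elements lie in the promoters of antiviral genes. RefSeq promoters of build GRCm38.p6 hold 250 bases before and 50 after an annotated start. The core of the interferon-stimulated response element was searched as GAAANNGAA on both strands, and matches to different motifs were counted apart even where they overlapped. It was found in 8.56% of all 32851 promoters and in 7.37% of the 7743 promoters of genes tested. The share was 18.3% over the 349 promoters of genes called higher with Lps and 4.46% over the 157 of genes called lower. In the lists it was 40.0% of 45 promoters of antiviral genes and 77.8% of 9 promoters of the GTPases. A match describes letters in a window and is not a site shown to be bound. The promoters of 4 genes called higher are shown as examples with the core in capitals, chosen after the matches were seen. Of other genes with differences of 3 or more, Cxcl9, Tnfsf8 and Apol9a held it, and Tlr3, Lhx2, Timeless, Mertk and Hdc did not. Each sequence shown is the 250 bases before the start, on the strand of the gene: Cxcl10 at chr5:92348890-92349139 (minus), Ifit3 at chr19:34583279-34583528 (plus), Igtp at chr11:58199306-58199555 (plus) and Tgtp1 at chr11:48992247-48992496 (minus).
Cxcl10: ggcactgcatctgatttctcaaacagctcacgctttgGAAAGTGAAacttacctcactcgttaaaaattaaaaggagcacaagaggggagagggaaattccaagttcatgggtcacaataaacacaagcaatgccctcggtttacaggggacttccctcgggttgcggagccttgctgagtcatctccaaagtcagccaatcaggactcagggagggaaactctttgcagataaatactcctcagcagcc
Ifit3: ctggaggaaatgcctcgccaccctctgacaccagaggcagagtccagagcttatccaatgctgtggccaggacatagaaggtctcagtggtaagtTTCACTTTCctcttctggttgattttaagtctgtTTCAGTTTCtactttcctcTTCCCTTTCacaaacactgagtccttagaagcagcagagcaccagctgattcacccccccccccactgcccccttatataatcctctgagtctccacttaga
Igtp: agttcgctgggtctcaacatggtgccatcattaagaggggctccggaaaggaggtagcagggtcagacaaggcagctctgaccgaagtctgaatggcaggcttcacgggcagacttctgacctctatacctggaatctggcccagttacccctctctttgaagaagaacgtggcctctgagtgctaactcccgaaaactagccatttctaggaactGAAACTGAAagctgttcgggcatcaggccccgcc
Tgtp1: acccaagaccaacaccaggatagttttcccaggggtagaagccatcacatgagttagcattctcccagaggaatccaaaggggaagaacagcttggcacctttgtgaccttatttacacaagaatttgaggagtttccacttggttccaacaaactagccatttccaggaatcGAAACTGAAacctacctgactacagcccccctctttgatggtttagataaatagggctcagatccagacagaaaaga
The core began 213 bases before the start in Cxcl10, 34 in Igtp and 77 in Tgtp1. Ifit3 held it 3 times, beginning 155, 121 and 102 bases before the start, each on the other strand. The listed promoters of Isg20, Cmpk2, Ifit2, Oasl1 and Ifi47 held no match to these letters, and no promoter of Iigp1 was listed. Genes not called held the core too, among them Ifitm3, Gbp2, Nfkbia, Ctss, Jund and Tnfrsf1b.

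**Figure D2:**
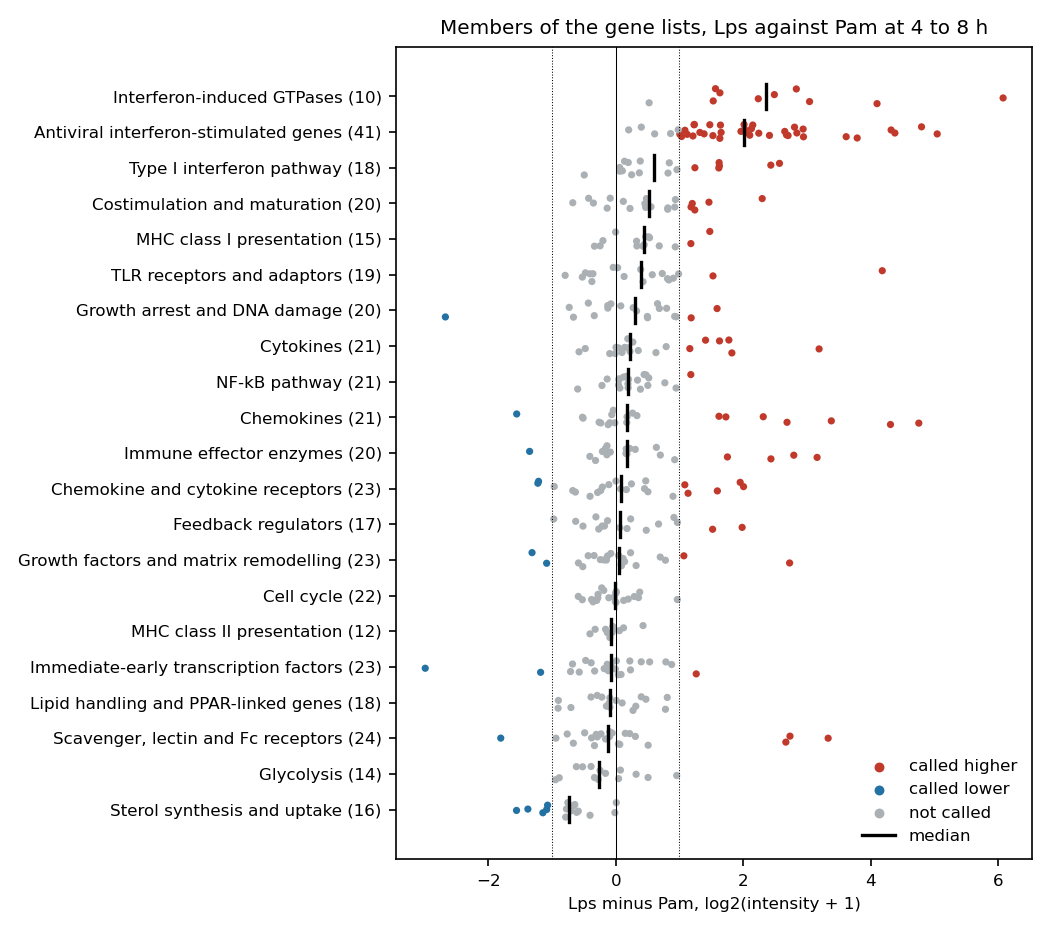
Difference between Lps and Pam in log2(intensity + 1) for each measured member of the 21 gene lists, with the number of measured members in brackets, red for called higher, blue for called lower, grey for not called and a black bar at the median. The GTPases and antiviral genes lie to the right with medians of 2.36 and 2.01, the sterol list lies to the left with a median of -0.73, and most other lists centre near 0.

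Chemokines held calls in both directions. Of 21 measured chemokine genes 7 (33.3%) were called higher with Lps and 1 (4.76%) lower, beside 4.47% and 2.08% of all items. Their median was 0.17. The ligands of the receptor CXCR3, which attract activated T cells, were called higher with Lps. Cxcl10 was at 7826 and 7966 at 4 h, 7835 and 8738 at 6 h and 6602 and 5972 at 8 h with Lps, against 148 and 186, 408.5 and 324, and 345 and 334 with Pam. Every Lps value exceeded every Pam value by more than an order of magnitude, and the unstimulated mean was 44.9. The difference was 4.76 ± 0.19. Cxcl11 ran from 321.5 to 539 with Lps and was at the floor on all Pam and unstimulated arrays, at least 20.8-fold higher. Cxcl9 ran from 208 to 293 with Lps and from 20.3 to 30.5 with Pam, a difference of 3.38 ± 0.08. Among the monocyte attractants, Ccl2 differed by 2.32 ± 0.14. Ccl7, at the floor on all Pam arrays, was at least 6.71-fold higher, a bound that cannot be ranked against the other differences. For these 5 genes the limma adjusted p ran from 2.3e-10 for Cxcl11 to 2.9e-06 for Ccl7. Attractants of neutrophils were not called higher. Cxcl5, named after its values were seen as the single chemokine called lower, had a mean of 203 with Lps and of 616 with Pam, a difference of -1.56 ± 0.12 (limma adjusted p = 1.6e-06). Cxcl1 ran from 1687 to 2232 with Lps and from 2549 to 3224 with Pam, at -0.52 ± 0.07, and Cxcl2 stood at -0.24 ± 0.04, neither called. Both were far above their unstimulated levels, the floor for Cxcl1 and a mean of 193 for Cxcl2. Ccl17, at -0.09 ± 0.03, and Ccl5, at 0.33 ± 0.03, were bright with either ligand and not called.

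Among cytokines the difference lay in a subset. Of 21 measured genes 6 (28.6%) were called higher and 0 lower, beside 4.47% and 2.08% of all items, with a median of 0.22. Il15, whose product sustains natural killer and memory T cells, stood at 1278 and 1389 at 4 h, 1277 and 1391 at 6 h and 923 and 786 at 8 h with Lps. With Pam it stood at 133 and 138, at 131 and 107.5 and at 121 and 119.5, below the unstimulated mean of 179. The difference was 3.19 ± 0.10. Its receptor chain gene Il15ra differed by 1.95 ± 0.08. Il12b, the p40 subunit shared by interleukin-12 and interleukin-23, ran from 4345 to 5938 with Lps and from 1199.9 to 1721 with Pam. Both ligands lay far above the unstimulated mean of 62.2, and the difference was 1.78 ± 0.05. Il23a, the p19 subunit of interleukin-23, ran from 30.5 to 129.6 with Lps and was above the floor on 1 Pam array, at 20.8, with a difference of 1.82 ± 0.27. Il18 differed by 1.63 ± 0.12 and Lta, the gene of lymphotoxin-alpha, by 1.41 ± 0.07. Limma gave these 6 genes adjusted p-values from 1.7e-09 for Il12b to 0.00016 for Il23a.

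The classical inflammatory cytokine genes were high with either ligand. Il6 had a lowest, median and highest intensity of 6584, 6904 and 7582 with Lps and of 5247, 5365 and 6029.5 with Pam, against an unstimulated mean of 28.9. The Lps values were all above the Pam values, and the difference was 0.35 ± 0.04 with a 95% interval inside the threshold of 1. Tnf ran from 2938.5 to 4898 and from 2938 to 3848, overlapping, at 0.22 ± 0.08, and Il1b stood at -0.10 ± 0.03. Inhba, an activin subunit gene, stood at 0.19 ± 0.03. Il10 was at the floor with Pam and on 4 of 6 Lps arrays, and was 27.4 and 26.5 with Lps at 8 h. Il12a, the p35 subunit of interleukin-12, ran from 982 to 1680.5 with Lps and from 451 to 936 with Pam, at 0.79 ± 0.15, not called, or 1.11 and called without the 8 h arrays.

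**Figure D3:**
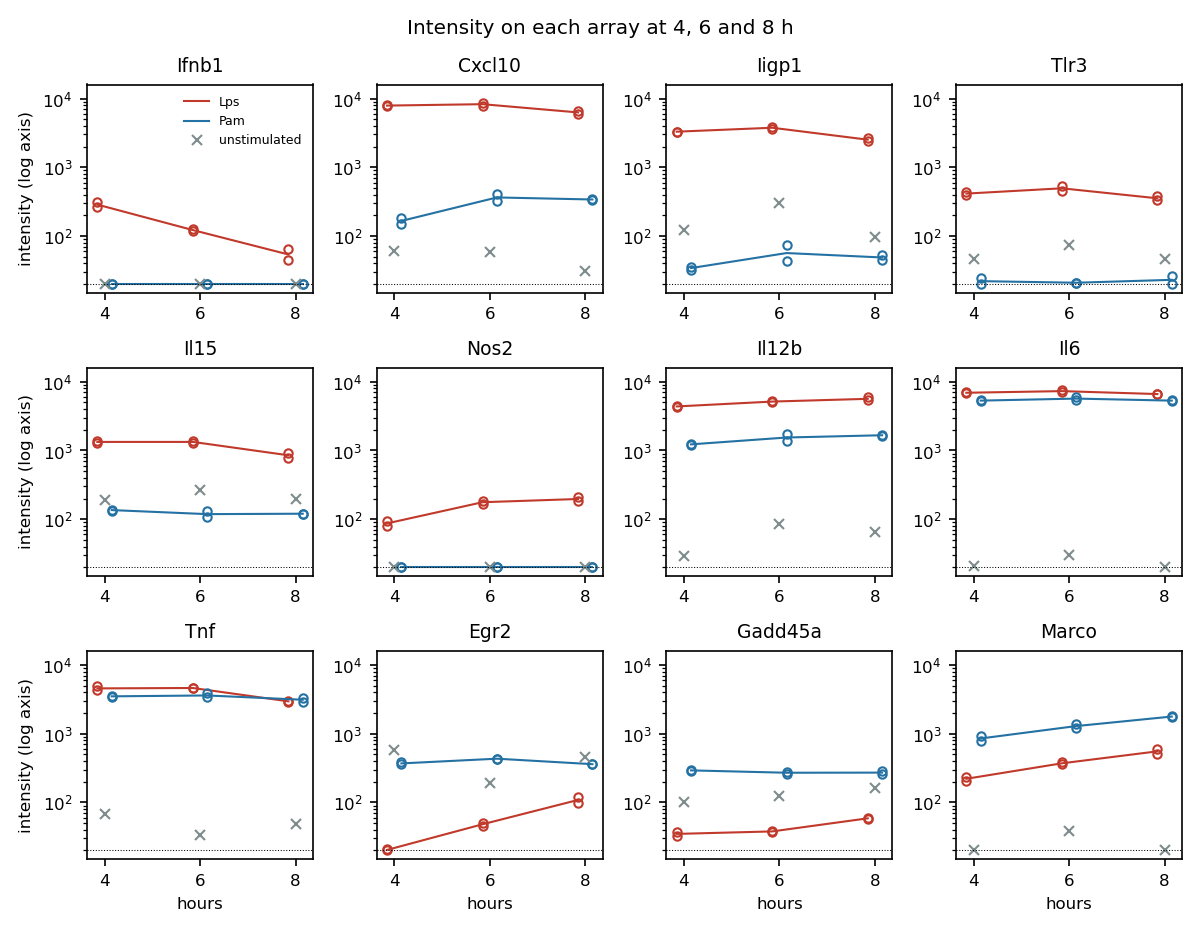
Intensity (log axis) of 12 genes on each array at 4, 6 and 8 h, with open red circles for Lps, open blue circles for Pam, lines through the geometric mean of the 2 arrays of an hour, grey crosses for the single unstimulated array of that hour and a dotted line at the floor of 20. Ifnb1 and Nos2 lie at the floor with Pam, Il6 and Tnf lie close together with both ligands, and Egr2, Gadd45a and Marco lie lower with Lps.

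Among Toll-like receptors and their adaptors, Tlr3 and Cd180 were called higher with Lps. Of 19 measured members 2 (10.5%) were called higher and 0 lower, beside 4.47% and 2.08% of all items. With each array centred on its median 4 were called higher. Tlr3, the sensor of double-stranded RNA, ran from 332 to 539.7 with Lps and from 20 to 26.4 with Pam, with an unstimulated mean of 54.4. The difference was 4.18 ± 0.11, and a second, dimmer Tlr3 probe set gave 1.83, also called. Cd180, a relative of TLR4 on antigen-presenting cells, differed by 1.53 ± 0.10. Adjusted p in limma was 7.3e-10 for Tlr3 and 3.3e-07 for Cd180. The receptor of each ligand was not called. Tlr2 ran from 2237 to 3072 with Lps and from 3713 to 3958 with Pam, at -0.53 ± 0.06, and Tlr4 stood at -0.38 ± 0.06. The co-receptor gene Cd14 stood at -0.41 ± 0.04 and Myd88, the shared adaptor, at 0.73 ± 0.06.

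Genes of T cell costimulation were higher with Lps in part. Of 20 measured members 5 (25%) were called higher and 0 lower, beside 4.47% and 2.08% of all items, with a median of 0.52. Cd86, a ligand of CD28, had a lowest, median and highest intensity of 2403, 2459 and 2739 with Lps and of 691, 917 and 1277 with Pam, a difference of 1.46 ± 0.10. Its partner Cd80 differed by 1.18 ± 0.08 and the receptor gene Cd40 by 1.24 ± 0.07. Both ligands lay above the unstimulated means of these 3 genes, which were 655, 114 and 103. Tnfsf10, the gene of the death ligand TRAIL, ran from 70.5 to 130.5 with Lps and was at the floor with Pam, at least 5.12-fold higher. Cd70 differed by 1.20 ± 0.13 with overlapping values, and by 0.99, not called, without the 6 h arrays. Limma adjusted p for these 5 genes ran from 4e-08 for Tnfsf10 to 1.7e-05 for Cd70. Tnfsf8, the gene of CD30 ligand, was among the 15 largest differences of all named genes, at 3.61 ± 0.15 (limma adjusted p = 1.4e-08). The checkpoint ligand gene Cd274 stood at 0.93 ± 0.05, not called, and at 1.03, called, with centred arrays.

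Antigen presentation genes held calls among those of class I. Of 15 measured class I genes 2 (13.3%) were called higher, beside 4.47% of all items, and 0 lower, and of 12 class II genes 0 were called in either direction, and the difference between these lists was not tested. Psmb9, a catalytic subunit of the immunoproteasome, ran from 1642 to 2072.5 with Lps and from 564 to 722 with Pam, a difference of 1.48 ± 0.05, with 1.14, called higher, and 0.13, dim and not called, on its other probe sets. Tapbpl, a tapasin-like peptide editor, differed by 1.18 ± 0.07. Averaging the probe sets of a gene ended both calls, at 0.92 for Psmb9 and 0.59 for Tapbpl. No other probe set of Tapbpl rose above the floor on the 12 arrays, so its average includes values at the floor. Adjusted p in limma was 2.7e-09 for Psmb9 and 1.4e-07 for Tapbpl. Cd74, the class II invariant chain, at -0.09 ± 0.03, and H2-Ab1, at -0.09 ± 0.03, were bright with either ligand, with overlapping values.

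The NF-kB pathway was called at about the share of all items. Of 21 measured NF-kB genes 1 (4.76%) was called higher, beside 4.47% of all items, namely Rel, which encodes the subunit c-Rel. Rel ran from 439 to 725 with Lps and from 221 to 335 with Pam, a difference of 1.18 ± 0.06 (limma adjusted p = 6.7e-08). Nfkbia, the gene of the inhibitor IkB-alpha, stood at 0.17 ± 0.05, Nfkbiz at 0.19 ± 0.10 and Birc3 at 0.04 ± 0.04, with overlapping values. Of 17 feedback genes 2 (11.8%) were called higher, or 4 with centred arrays. Peli1, a ubiquitin ligase gene, ran from 1390.4 to 2749.5 with Lps and from 456 to 528 with Pam, a difference of 1.98 ± 0.12. The MAP kinase phosphatase gene Dusp2 differed by 1.52 ± 0.10, with adjusted p in limma of 4.7e-07, and Peli1 had 2.5e-07. Dusp1 stood at -0.13 ± 0.13 and Socs2 at 0.06 ± 0.05.

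Of 20 measured immune effector enzymes 4 (20%) were called higher with Lps and 1 (5%) lower, beside 4.47% and 2.08% of all items. Nos2, the inducible nitric oxide synthase, stood at 80.7 and 93.7 at 4 h, 168 and 186 at 6 h and 186 and 209 at 8 h with Lps. It was at the floor on all Pam and unstimulated arrays, at least 7.23-fold higher with Lps. Hdc, which makes histamine, ran from 252 to 378 with Lps and from 27.9 to 40.1 with Pam, a difference of 3.16 ± 0.11. Ch25h, which makes 25-hydroxycholesterol, differed by 2.44 ± 0.10, with both ligands far above the unstimulated mean of 39.5. The phospholipase gene Pla1a differed by 1.75 ± 0.06. Hmox1, the haem-degrading oxygenase, ran from 286 to 975.5 with Lps and from 957 to 1498 with Pam, a difference of -1.35 ± 0.17. For these 5 genes the limma adjusted p ran from 3.3e-09 for Hdc to 5.2e-05 for Hmox1. Acod1, which makes itaconate, stood at 0.17 ± 0.03, not called. The probe sets of Ptgs2, the inducible cyclooxygenase, disagreed on the call. The brightest stood at 0.70 ± 0.07, not called, another at 1.43, called higher (limma adjusted p = 1.2e-07), and their average at 1.07, also called.

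Receptors for dying cells, antibodies and bacteria held calls in both directions. Of 24 measured scavenger, lectin and Fc receptor genes 3 (12.5%) were called higher and 1 (4.17%) lower, beside 4.47% and 2.08% of all items. Their median was -0.13, near that of all items. Mertk, which binds apoptotic cells, stood at 782 and 848 at 4 h, 632 and 597 at 6 h and 406.5 and 415 at 8 h with Lps. The Pam arrays stood at 91.9 and 92.4, 44.4 and 58 and 41.6 and 39.9, below all unstimulated arrays, which ran from 272 to 526. The difference was 3.33 ± 0.08. Fcgr1, the high-affinity receptor for immunoglobulin G, ran from 1659.5 to 2736.5 with Lps and from 264 to 458 with Pam, with an unstimulated mean of 1835, a difference of 2.74 ± 0.18. Fcgr4 differed by 2.67 ± 0.26. Marco, a scavenger receptor that binds bacteria, went the other way, at 207.5 and 235 at 4 h, 386 and 357 at 6 h and 509.7 and 602 at 8 h with Lps. With Pam it was 777 and 936, 1374 and 1214 and 1764.5 and 1789, and both ligands lay far above the unstimulated mean of 25.4. The difference was -1.81 ± 0.07. Limma gave these 4 genes adjusted p-values from 4.6e-10 for Mertk to 7e-06 for Fcgr4. The lectin genes Clec4e, at -0.10 ± 0.04, and Clec7a, at -0.16 ± 0.04, had overlapping values.

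Of 23 measured chemokine and cytokine receptor genes 5 (21.7%) were called higher and 2 (8.7%) lower, beside 4.47% and 2.08% of all items. C3ar1, the receptor of complement C3a, ran from 341 to 493 with Lps and from 72.1 to 148 with Pam, both below all unstimulated arrays, the lowest of which was 568. Its difference was 2.01 ± 0.16, and the atypical chemokine receptor gene Ccrl2 differed by 1.59 ± 0.08. Tgfbr1, a receptor chain for TGF-beta, stood at -1.22 ± 0.11 and Il6ra, the interleukin-6 receptor chain, at -1.21 ± 0.14. Other probe sets of these last genes, all dim, stood at -0.75, -0.56 and -0.29 and were not called, and averaging the probe sets of a gene ended both calls, at -0.84 and -0.75. Limma adjusted p for these 4 genes ran from 4.2e-08 for Ccrl2 to 2.1e-05 for Il6ra. Csf1r, the receptor of macrophage colony-stimulating factor, had a mean of 899 with Lps and of 1753 with Pam. Its difference of -0.97 ± 0.08 was not called, but was called at -1.01 without Lps replicate 2 at 4 h and at -1.02 without Pam replicate 1 at 4 h.

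Of 23 measured growth factor and matrix genes 2 (8.7%) were called higher and 2 (8.7%) lower, beside 4.47% and 2.08% of all items. Hbegf, a ligand of the epidermal growth factor receptor, ran from 151 to 344 with Lps and from 30.4 to 42.2 with Pam, a difference of 2.73 ± 0.15, and the proteoglycan gene Vcan differed by 1.07 ± 0.04. Pdgfb, a platelet-derived growth factor gene, stood at -1.32 ± 0.12 and Lox, which cross-links collagen, at -1.09 ± 0.10. Lox stood at -0.98, not called, with centred arrays. For these 4 genes the limma adjusted p ran from 8e-09 for Vcan to 6.1e-06 for Lox.

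The largest difference towards Pam among named genes was Egr2, a zinc finger transcription factor of the immediate-early class. Egr2 stood at 20 and 20.8 at 4 h, 50.4 and 46 at 6 h and 118.5 and 99.8 at 8 h with Lps. On the Pam arrays it was at 357 and 383, 431 and 435 and 361 and 359.7, inside the unstimulated range of 190.1 to 949.5. All Lps values were below all Pam and unstimulated values, and the difference was -2.99 ± 0.31, with -2.54 on a second probe set, also called. Of 23 measured immediate-early genes 1 (4.35%) was called higher, about the share of all items (4.47%). In the other direction 2 (8.7%) were called lower, beside 2.08% of all items, and the median was -0.07. Klf10 stood at -1.18 ± 0.15 and Klf4 at 1.26 ± 0.18. Both were dim, with means of 30.2 and 63.9 with Lps and of 67.5 and 24.9 with Pam, and neither was called with log2(intensity + 16), at -0.87 and 0.92. Their unstimulated means, 194 and 305, lay above both ligands. Limma gave these 3 genes adjusted p-values from 1e-05 for Egr2 to 0.00014 for Klf4. Egr1 was at 20 to 21.3 on all 12 arrays, so no difference could be measured, and Atf3 stood at 0.88 ± 0.06.

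The CArG box, the element bound by serum response factor, was found in 1.63% of all promoters, in 1.29% of those of genes tested and in 5 of 23 promoters of immediate-early genes. These 5 belong to 2 of the 17 genes, and 4 of them are promoters of Egr2 whose windows lie close together. In the promoters of genes called higher with Lps its share was 2.29%, and in those called lower 4.46%, where 7 promoters of 4 genes held it, Egr2 among them. The EGR site GCGTGGGCG, searched on both strands, was in 0.61% of all promoters, 1.14% of those of genes tested, 0.86% of those called higher and 1.27% of those called lower. The NF-kB core GGGANTTTC, on both strands, was in 1.11% of all promoters, 1.07% of those of genes tested, 1.43% of those called higher and 0.64% of those called lower. In the lists it was in 3 of 23 promoters of cytokine genes, Il6 among them. The promoters of Egr2, the largest named difference towards Pam, and of Il6, close to equal between the ligands, are shown beside those of the antiviral genes. Capitals mark an interferon element core and then a CArG box in Egr2, and the NF-kB core in Il6. Each is 250 bases before a start on the plus strand, at chr10:67537316-67537565 for 1 of the starts of Egr2 and at chr5:30012864-30013113 for Il6.
Egr2: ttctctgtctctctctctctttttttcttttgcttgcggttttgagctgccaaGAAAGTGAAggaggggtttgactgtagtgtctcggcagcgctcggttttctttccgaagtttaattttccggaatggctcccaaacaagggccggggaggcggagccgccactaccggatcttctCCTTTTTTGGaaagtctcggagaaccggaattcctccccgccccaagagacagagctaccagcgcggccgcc
Il6: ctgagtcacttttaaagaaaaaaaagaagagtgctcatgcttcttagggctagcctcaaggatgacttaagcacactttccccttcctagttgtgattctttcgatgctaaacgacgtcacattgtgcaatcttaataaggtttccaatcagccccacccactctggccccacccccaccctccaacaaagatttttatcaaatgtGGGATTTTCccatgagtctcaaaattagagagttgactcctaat

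Growth arrest genes held calls in both directions. Gadd45a, a stress gene induced by DNA damage, stood at 37.4 and 32.5 at 4 h, 37.4 and 38.4 at 6 h and 57.8 and 59.7 at 8 h with Lps. With Pam it stood at 289 and 296, 279 and 263 and 259.5 and 284, above all unstimulated arrays, while the Lps values were below all of them, with an unstimulated range of 83.3 to 208. The difference was -2.68 ± 0.12 (limma adjusted p = 2e-08). Ccnd2, the gene of cyclin D2, ran from 4281 to 5759.8 with Lps and from 1434 to 1972 with Pam, a difference of 1.59 ± 0.05, and 5 other probe sets of it were all called higher, from 1.61 to 2.45. Ccng2, the gene of cyclin G2, differed by 1.18 ± 0.07. Adjusted p in limma was 3.2e-09 for Ccnd2 and 2e-07 for Ccng2. In all 2 (10%) of 20 measured members were called higher and 1 (5%) lower, beside 4.47% and 2.08% of all items. Gadd45b, at 0.65 ± 0.04, was not called, and Cdkn1a, the gene of p21, stood at 0.92 ± 0.05, or at 1.03 and called with centred arrays. Of 22 measured cell cycle genes 0 were called in either direction.

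Genes of cholesterol and fatty acid synthesis held calls towards Pam. Of 16 measured members of the sterol list 5 were called lower and 0 higher, where 2.08% of all items were called lower, and the median was -0.73. Fasn, fatty acid synthase, stood at 71.2 and 101 at 4 h, 71.2 and 69.5 at 6 h and 43.3 and 59.6 at 8 h with Lps. The Pam arrays stood at 262 and 305, 193 and 209 and 151 and 131, so every Pam value was above every Lps value. The unstimulated mean was 212, and the difference was -1.56 ± 0.10. The mevalonate pathway gene Mvd, at -1.38 ± 0.11, the late cholesterol synthesis gene Hsd17b7, at -1.07 ± 0.11, the squalene epoxidase gene Sqle, at -1.08 ± 0.09, and the sterol carrier gene Stard4, at -1.15 ± 0.08, were also called. With Pam these 4 genes were brightest at 4 h, where Sqle stood at 594.5 and 627 against 210.4 and 232 with Lps. Limma adjusted p for these 5 genes ran from 4.2e-07 for Fasn to 7.9e-06 for Hsd17b7. The count was 3 with centred arrays, with log2(intensity + 16) and without the 4 h arrays, and Hsd17b7 was not called, at -0.996, without Pam replicate 1 at 4 h. Idi1 stood at 0.01 ± 0.08 and Fdft1 at -0.40 ± 0.05, with overlapping values. Of 18 lipid handling genes and 14 glycolysis genes 0 were called in either direction, with medians of -0.09 and -0.26.

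Outside the lists, the largest differences towards Lps included genes of several kinds. Lhx2, a LIM homeobox transcription factor gene, stood at 431 and 425 at 4 h, 310.5 and 346 at 6 h and 169 and 158 at 8 h with Lps. It was at the floor on all Pam and unstimulated arrays, at least 14.2-fold higher with Lps. Timeless, whose product protects replication forks, ran from 275 to 385 with Lps and from 20.1 to 29.6 with Pam, a difference of 3.63 ± 0.12, with 3.10 on a second probe set. Apol9a, an apolipoprotein L gene, differed by 3.63 ± 0.09. For these 3 genes the limma adjusted p ran from 7e-10 for Apol9a to 4.3e-08 for Lhx2.

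Towards Pam the largest differences were smaller, and most were of dim genes. Pkp2, which encodes the junction protein plakophilin 2, ran from 33.8 to 72.3 with Lps and from 184 to 295 with Pam, a difference of -2.18 ± 0.09. Arrb1, the gene of beta-arrestin 1, differed by -1.95 ± 0.08 and the myeloid transcription factor gene Cebpa by -1.86 ± 0.10, and the means with both ligands lay below the unstimulated means, 302 for Arrb1 and 279.8 for Cebpa. The others were the sphingomyelin synthase gene Sgms1 (-1.78 ± 0.19), the fatty acid desaturase gene Fads1 (-1.74 ± 0.15), Dock5 (-1.70 ± 0.16) and the spermidine synthase gene Srm (-1.69 ± 0.16). After them came the adaptor gene Sla (-1.66 ± 0.12), Sox4 (-1.65 ± 0.15), Dnmt3l (-1.64 ± 0.08), the death receptor gene Tnfrsf21 (-1.62 ± 0.12) and the kinase gene Dapk1 (-1.62 ± 0.10). Limma gave these 12 genes adjusted p-values from 1e-08 for Pkp2 to 1.2e-05 for Sgms1. Sox4, a transcription factor gene, rests on 1 probe set at or near the floor with Lps. Another stood at -0.13, and averaging its probe sets gave -0.36, not called. Of the 88 named genes that were called, 33 had another measured probe set. The 41 such probe sets all had the sign of the reported one, 28 were called the same way, 13 were not called and 0 were called the other way.

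The difference between the ligands changed with time for a small share of genes. Between 4 and 8 h it moved towards Lps by at least 1 on the log2 scale, at an adjusted p in limma under 0.05, for 94 items (0.951%), and towards Pam for 88 (0.89%). This fit took all 96 arrays to estimate the spread. The 8 unstimulated arrays shared 1 mean in it, so their differences between hours count as spread in these standard errors and p-values. Ifnb1 had differences of 3.77, 2.55 and 1.39 at 4, 6 and 8 h, and since Pam stayed at the floor, the change of -2.39 ± 0.23 is that of the Lps arrays (limma adjusted p = 3.6e-11). Il23a went from 2.51 to 0.61, a change of -1.90 ± 0.24, Arid5a, whose product stabilises the Il6 transcript, from 3.50 to 1.46, and the cell cycle regulator gene Rgcc from 3.89 to 0.78. Plagl1, a zinc finger gene at the floor with Pam, went from 3.90 to 1.83. Ereg, the gene of epiregulin, crossed over in its means, though its difference at 4 h was under the threshold of 1. It stood at 104 and 127 at 4 h and at 85.4 and 75.5 at 8 h with Lps, and at 55.5 and 93.9 and then 254 and 225.5 with Pam, a change of -2.23 ± 0.35 (limma adjusted p = 6e-06). Over the 3 hours its difference of -0.59 ± 0.31 was not called.

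Towards Lps, the nucleoside transporter gene Slc28a2 went from 2.10 at 4 h to 3.88 at 8 h, a change of 1.78 ± 0.21, and Ccl7 went from 1.68 to 3.13. Nos2, at the floor with Pam, went from 2.07 to 3.24, a change of 1.17 ± 0.17, and Fcgr1 from 1.92 to 3.14. Hspa1b, a heat shock protein gene, went from -0.05 to 1.73. Over the 3 hours its difference of 0.98 ± 0.24 was not called, but it was called without any 1 of the 4 arrays of 4 h, at 1.06 to 1.15. Egr2 went from -4.12 to -1.72 and Sgms1 from -2.40 to -1.003. For Sgms1 the Lps arrays stood at 38 and 36.2 at 4 h and at 101.6 and 91.7 at 8 h, and the Pam arrays lay between 191.3 and 209.8 at both hours. Rab7b, a small GTPase gene of late endosomes, went from -1.98 to -0.33, a change of 1.65 ± 0.14. Its difference over the 3 hours, -1.04 ± 0.22, was called, but not without any 1 of the 4 h arrays, at -0.90 to -0.96. Over these 8 genes the limma adjusted p of the change ran from 5.2e-13 for Rab7b to 0.00058 for Egr2. By list, the median difference of the antiviral genes was 2.09 at 4 h, 1.93 at 6 h and 1.70 at 8 h, with 6 of 41 members called changed towards Pam and 0 towards Lps, beside 0.89% and 0.951% of all items.

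**Figure D4:**
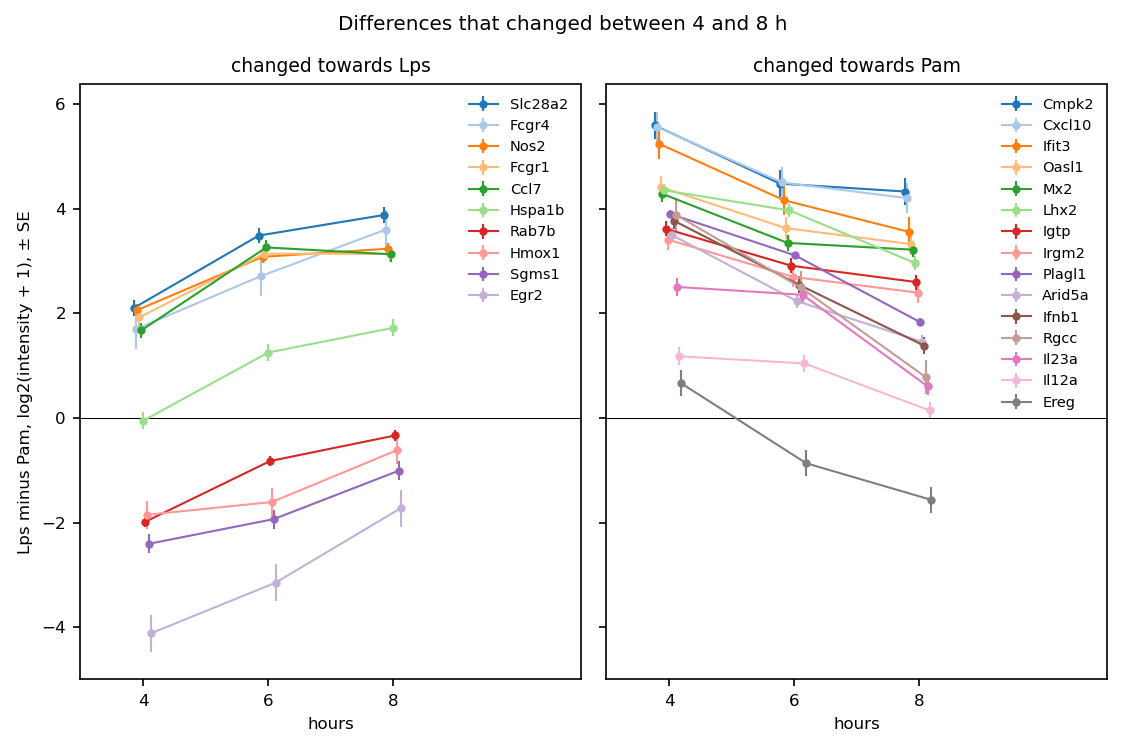
Difference between Lps and Pam in log2(intensity + 1) at 4, 6 and 8 h, with standard errors, for the 25 named genes whose difference changed by at least 1 between 4 and 8 h, 10 towards Lps on the left and 15 towards Pam on the right. Points are set slightly apart within an hour for legibility, and Ereg starts above 0 and ends below it.

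The hours around this window place the values in the response. With Lps, Ifnb1 was brightest at 2 h, at 845 and 854.5, and was back at the floor at 16 h, while with Pam it was at the floor at every time from 0.5 to 24 h. Cxcl10 reached 369 and 388 with Pam at 1 h, its highest hour there, and 7835 and 8738 with Lps at 6 h. Il12b stood higher with Pam than with Lps at 1 h, at 691 and 774 against 193 and 206, and higher with Lps from 2 h. Egr2 reached 2628 and 2774 with Lps at 1 h and 2756 and 2959.6 with Pam, so it was bright with both ligands before the window. At 24 h it stood at 153 and 169 with Lps and at 192 and 225 with Pam. Gadd45a was likewise bright with both at 1 h, at 695 and 759 with Lps and 728 and 733 with Pam. Marco was brightest with both ligands at 16 h, at 1563 and 1839 with Lps and 4656 and 5479.9 with Pam. These courses are a description with 2 arrays per hour and no test.

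**Figure D5:**
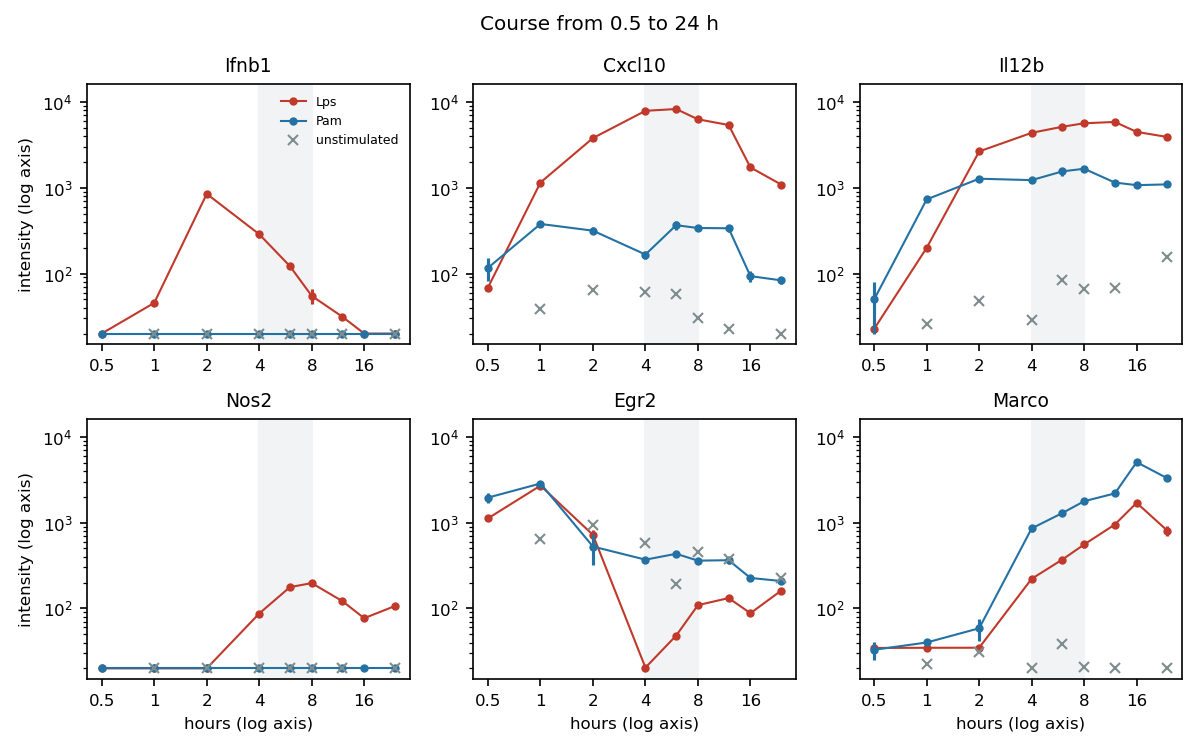
Intensity (log axis) of 6 genes from 0.5 to 24 h (log axis), with the mean of the 2 arrays of each hour as points, their range as vertical bars, red for Lps, blue for Pam, grey crosses for single unstimulated arrays and the 4 to 8 h window shaded. Egr2 is bright with both ligands at 1 h and parts at 4 h, while Ifnb1 and Nos2 stay at the floor with Pam throughout.

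The other ligands at the same hours show where each gene of the contrast stood in the study, as levels with no test. Cxcl10 had a mean intensity of 7489.6 with Lps, 7882 with Pic, 4868 with Cpg, 2735 with Grd and 291 with Pam. Iigp1 was highest with Pic, at 3869.8, ahead of Lps at 3193, Cpg at 2094, Grd at 928 and Pam at 47.2. Il12b was low with Pic, at 164, and at 1483 with Pam it lay below Grd at 3565, Lps at 5057 and Cpg at 6446. Nos2 was brightest with Lps, at 154, and at 42.6 with Cpg and 23.2 with Pic. Egr2 was lowest with Lps, at 59.2, and at 177 with Cpg, 297 with Grd, 338 with Pic and 388 with Pam. Marco was highest with Pam and lay at 31.5 with Pic. For Egr2 the 6 Lps arrays and the Cpg arrays, from 77.6 to 322, overlapped, and for Marco the Pam arrays, from 777 to 1789, overlapped those of Cpg, from 532 to 981, and Grd, from 490 to 1123.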

How the data were processed

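The deposited values are microarray intensities on a linear scale, made by the authors with RMA per the submitters' processing notes. The version of RMA, and how the linear scale and the floor of 20 came about, are not given in the sources used here. Of 18858 probe sets, 15044 had 1 gene symbol in the platform annotation, 257 had several and 3557 had none. For genes with several probe sets, the one with the highest mean was used, and 3960 items that never rose above the floor on the 12 arrays were not tested. Differences in log2(intensity + 1) were fitted over the 12 arrays with limma 3.58.1 in R 4.3.3, with the hour as a block and 8 residual degrees of freedom. Changes between 4 and 8 h came from a fit of group means over all 96 arrays with 50 residual degrees of freedom. Each ligand and hour had a mean, and the 8 unstimulated arrays of all hours had 1 mean together. The scripts were tested on simulated data. No shared shift by replicate number was seen across genes: the deviations of same-numbered arrays correlated at -0.020, -0.023 and -0.034 at 4, 6 and 8 h. Whether same-numbered arrays shared a culture is not stated in the labels and was not tested. The gene lists and the rules were chosen with earlier results of these data known. Genes were named as the 15 largest non-overlapping differences each way, up to 5 called and 3 bright uncalled members of each list, a panel of 31 genes of which 27 were tested, and the 5 largest called changes with time each way. Alternatives were another pseudocount, filters, centred arrays, quantile normalization, averaged probe sets, other fits, and leaving out an hour or an array. Promoters came from RefSeq.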

Additional observations from a re-analysis of the deposited data

Results flagged for a closer look

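The difference between Lps and Pam was compared between 4 and 8 h in limma, and each named gene whose difference changed past the threshold is given here as the difference at 8 h minus that at 4 h, on the log2 scale. Changes towards Lps were 2.40 for Egr2, 1.91 for Fcgr4, 1.78 for Slc28a2, 1.78 for Hspa1b, 1.65 for Rab7b, 1.45 for Ccl7, 1.40 for Sgms1, 1.24 for Hmox1, 1.21 for Fcgr1 and 1.17 for Nos2. Changes towards Pam were -3.11 for Rgcc, -2.39 for Ifnb1, -2.23 for Ereg, -2.07 for Plagl1, -2.04 for Arid5a, -1.90 for Il23a, -1.69 for Ifit3 and -1.39 for Lhx2. Smaller ones were -1.36 for Cxcl10, -1.26 for Cmpk2, -1.09 for Oasl1, -1.07 for Mx2, -1.03 for Il12a, -1.02 for Igtp and -1.01 for Irgm2. For Ifnb1, Plagl1, Lhx2, Ccl7 and Nos2 all Pam arrays were at the floor, so the change is that of the Lps arrays, and for Egr2 the Lps arrays at 4 h were at or next to the floor.

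Several of these calls were lost without a single array. Cxcl10 was not called without any 1 of 6 arrays, Lps replicate 1 or 2 at 4 h, Lps replicate 2 at 8 h, Pam replicate 1 at 4 h and Pam replicate 1 or 2 at 8 h, with changes from -1.39 to -1.20 and limma adjusted p from 0.052 to 0.1. Hmox1 lost its call without Lps replicate 1 or 2 at 4 or 8 h, Pam replicate 2 at 4 h or Pam replicate 1 at 8 h, with changes from 1.09 to 1.29. Cmpk2 lost it without Lps replicate 1 at 4 h, Lps replicate 2 at 8 h, or Pam replicate 1 at 4 or 8 h, with changes from -1.26 to -1.09. Igtp fell below the threshold in size without Lps replicate 1 at 4 or 8 h or Pam replicate 2 at 4 or 8 h, at -0.95 to -0.97. Fcgr4 lost its call without Lps replicate 2 at 4 h, Pam replicate 1 at 4 h or Pam replicate 2 at 8 h, at 1.72 to 1.75. Irgm2 lost it without Lps replicate 2 at 4 h or Pam replicate 2 at 8 h, at -0.95 and -0.96, and Il12a without Lps replicate 1 at 8 h, at -0.98.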

How the results depend on the processing

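Over all settings tried, the number of items called higher with Lps ran from 390 to 527 around 442. No called named gene changed sign, but uncalled differences and list medians near 0 did, such as the median of all items, 0.0042 with centred arrays. With log2(intensity + 16) the number called lower was 123 in place of 206, and the numbers whose difference changed with time were 50 towards Lps and 58 towards Pam in place of 94 and 88. Leaving out single arrays gave 440 to 455 higher, 195 to 225 lower, 34 to 37 antiviral genes higher, 81 to 114 changes towards Lps and 77 to 99 towards Pam. With the replicate number as a block the counts were 442 higher, 206 lower and 36 antiviral genes higher, with 94 and 86 changes. In this balanced layout that block cannot alter the size of a difference, only its p-value. Most items passed the p-value cut alone, so the equal counts are no sign of stability. The same limit holds for the other fits among the settings. Of 88 called named genes, 13 lost the call under at least 1 of 25 settings, and 7 of 72 uncalled ones gained it. With centred arrays the medians of the class II, immediate-early, cell cycle and lipid lists were 0.03, 0.03, 0.09 and 0.01, above 0. Values at the floor limit every difference of a dim gene to a bound. No p-value covers spread between cultures, since the labels do not say that arrays came from separate ones.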
